A study of Mus musculus with 8 samples.

Results

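Cytochrome P450 genes encode a large family of heme-containing monooxygenases, and 96 of them were examined among 22180 genes measured in lung mesenchymal cells. They were taken as the array probe sets annotated with a single gene symbol that begins with Cyp and a digit, leaving out Cyp51 and Cyp26b1. A gene with several such probe sets was represented by the one with the highest mean over the 8 arrays, so that 100 probe sets gave 96 genes. The genes were then separated by brightness, which is the mean log2 intensity over all 8 arrays. A gene at or above 5.51, the median of all tested genes, was called bright, and the rest were called dim. By this rule 22 P450 genes were bright and 74 were dim.

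P450 enzymes take electrons from a reductase, or in mitochondria from ferredoxin, and use them to insert an oxygen atom into a substrate. Families CYP1 to CYP4 mainly oxidise drugs, inhaled chemicals, fatty acids and eicosanoids, while others make or break down cholesterol products, steroid hormones, vitamin D and retinoic acid. In the mouse lung the best known sites of the drug-metabolising enzymes are club cells, alveolar type 2 cells and endothelium. Many of these genes are switched on by receptors that sense foreign chemicals, such as the aryl hydrocarbon receptor.

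The cells came from C57BL/6J mice of 11 weeks kept free of specific pathogens. Controls had received PBS and the other mice bleomycin, a drug that injures the lung, both through the trachea. On day 10, whole lungs were taken and cells negative for CD45, CD31 and EpCAM were sorted, a gate meant to leave out blood cells, endothelium and epithelium. There were 4 control and 4 bleomycin arrays. The labels give neither dose nor sex, and they do not say whether replicates came from separate animals or from pools, so the p-values cover only the spread of these arrays, part or all of which could be technical. All values below are log2 intensities as deposited, and all differences are bleomycin minus control with their standard error (SE). The test was limma's moderated test, two-sided, with p-values adjusted over all 22180 genes, and a gene passed at an adjusted p under 0.05.

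The sorted cells were checked against markers. Of 10 mesenchymal markers, 6 were higher in bleomycin and 2 lower, and their summed log2 level was 14.63 to 14.83 in control and 14.91 to 15.13 in bleomycin arrays. Transcripts of the gated proteins were nonetheless measured: Pecam1, which encodes CD31, ran from 9.26 to 10.36 in control arrays and from 8.18 to 8.89 in bleomycin arrays. Ptprc, which encodes CD45, ran from 6.23 to 7.01 and from 6.16 to 6.26, and Epcam from 4.71 to 5.22 and from 3.98 to 4.75. Pecam1 passed as lower in bleomycin (limma adjusted p = 0.00486). Ptprc (adjusted p = 0.0529) and Epcam (adjusted p = 0.0547) did not pass, and their groups overlapped. Epcam was dim, with a mean of 4.71, and may not have been above background.

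Among the bright P450 genes more fell after bleomycin than rose. Of the 22, 9 fell, 3 rose and 10 did not pass, where 27.9% of all bright genes passed in either direction. Across those genes 14% were called lower and 13.9% higher, so the 9 that fell were a larger share than the background, while the 3 that rose were near it. For 12 of the 22 the groups did not overlap, against 37.3% of all bright genes. A fall of more than 2-fold was seen for 5 of them, against 2.34% of bright genes. The median difference over the 22 was -0.35, beside -0.003 over all bright genes. RNA from a sorted population does not distinguish fewer cells of a type from less RNA per cell: the 2 cannot be told apart.

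**Figure D1:**
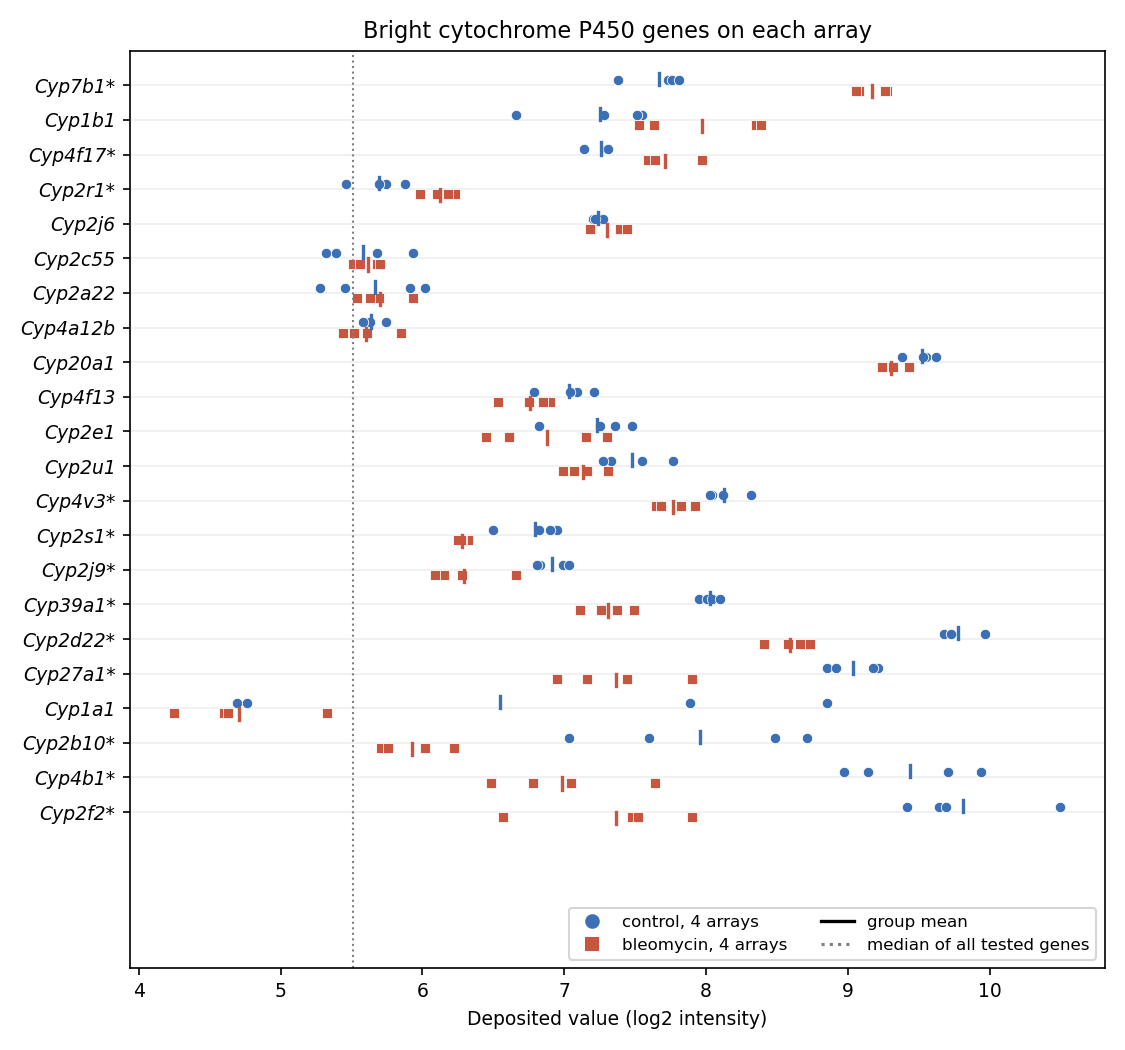
Each row is a bright P450 gene and each point an array, with log2 intensity on the x axis, circles for the 4 control and squares for the 4 bleomycin arrays, short bars for group means and an asterisk for genes that passed. Cyp2f2, Cyp4b1, Cyp2b10, Cyp27a1 and Cyp2d22 lie more than 2-fold lower in bleomycin with no overlap, Cyp7b1 lies higher, and the control points of Cyp1a1 fall into a high and a low pair.

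The dim genes showed few differences. Of the 74, 2 rose, 2 fell and 70 did not pass, whereas 4.37% of all dim genes were called higher and 2.46% lower. The groups did not overlap for 5 of the 74, against 9.68% of dim genes. None of the 74 differed by 2-fold, the largest difference being 0.67 in size, and their median difference was 0.05, beside 0.0466 over all dim genes. Counted at an unadjusted p under 0.05, 7 dim P450 genes were higher and 3 lower. The share of all dim genes at that threshold was not counted, so no lean can be read from these numbers. The difference was below 0 for 32 of the 74, and for 39.9% of all dim genes. Just inside the brightness threshold stood Cyp4a12b at a mean of 5.62 and Cyp2c55 at 5.60, and just outside it Cyp4x1 at 5.41 and Cyp46a1 at 5.37. The deposited values carry no detection calls, so a dim gene may not have been above background.

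**Figure D2:**
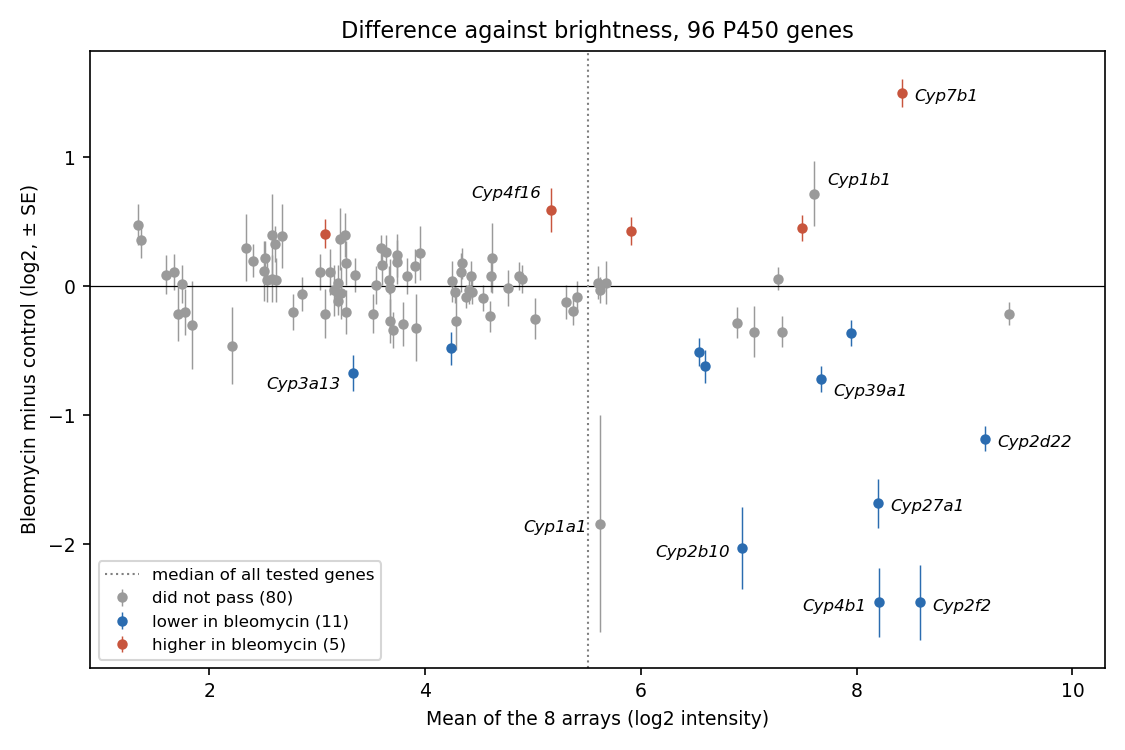
Each point is a P450 gene, with its mean log2 intensity over 8 arrays on the x axis, the log2 difference of bleomycin from control on the y axis and bars of ± SE. The genes past the dotted line at 5.51 spread from -2.45 to 1.50, while those short of it stay within 0.67 of 0.

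Among the drug-metabolising CYP1 and CYP2 enzymes, the promoters of 4 are printed because the data turn on these genes or on the receptor that many of them answer to. RefSeq (GRCm38.p6) gave a window of 300 bases, from 250 before the transcription start to 50 after it, for 70 of the 96 genes, 16 of them bright. The aryl hydrocarbon receptor element core GCGTG is in capitals in the windows of Cyp1a1, Cyp1b1 and Cyp2b10, where CACGC is the same motif read on the opposite strand. In the window of Cyp2f2 the capitals mark AGGTCA, a hexamer bound by many nuclear receptors. The windows lie at chr9:57697363-57697662 on the plus strand, chr17:79715012-79715311 on the minus strand, chr7:25897408-25897707 on the plus strand and chr7:27119705-27120004 on the plus strand, in the order printed.
Cyp1a1: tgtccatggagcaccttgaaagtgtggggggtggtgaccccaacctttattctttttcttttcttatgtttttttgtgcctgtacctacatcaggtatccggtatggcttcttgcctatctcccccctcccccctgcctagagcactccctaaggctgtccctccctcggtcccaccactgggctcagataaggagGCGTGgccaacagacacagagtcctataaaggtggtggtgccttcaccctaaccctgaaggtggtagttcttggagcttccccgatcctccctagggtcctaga
Cyp1b1: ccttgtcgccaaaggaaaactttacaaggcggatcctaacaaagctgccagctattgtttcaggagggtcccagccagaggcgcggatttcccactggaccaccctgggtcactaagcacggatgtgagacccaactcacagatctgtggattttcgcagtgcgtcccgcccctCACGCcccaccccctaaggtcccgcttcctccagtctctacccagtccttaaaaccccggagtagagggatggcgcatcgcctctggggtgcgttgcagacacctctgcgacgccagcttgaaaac
Cyp2b10: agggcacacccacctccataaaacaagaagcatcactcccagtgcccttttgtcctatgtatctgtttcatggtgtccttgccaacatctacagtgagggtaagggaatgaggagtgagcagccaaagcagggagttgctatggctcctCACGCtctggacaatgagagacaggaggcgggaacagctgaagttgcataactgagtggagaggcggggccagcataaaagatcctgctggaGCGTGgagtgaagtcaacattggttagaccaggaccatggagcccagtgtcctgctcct
Cyp2f2: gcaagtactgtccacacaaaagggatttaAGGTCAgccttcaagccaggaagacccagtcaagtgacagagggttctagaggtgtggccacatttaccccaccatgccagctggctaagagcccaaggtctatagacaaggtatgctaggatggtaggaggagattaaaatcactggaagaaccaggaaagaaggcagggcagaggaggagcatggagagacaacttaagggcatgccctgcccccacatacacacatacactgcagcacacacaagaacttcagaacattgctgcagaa

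Positions are those of the first printed base in capitals, whether it reads GCGTG or CACGC. It lay 54 bases before the start of Cyp1a1 and 76 before that of Cyp1b1. Cyp2b10 held matches at 101 and at 9 bases before the start, and AGGTCA lay 221 bases before the start of Cyp2f2. Both strands were searched, and none of the 4 motifs searched contains another, though their matches may overlap at the ends. GCGTG was in 7 of the 16 bright and 9 of the 54 dim genes with a window, and in 32.4% of all 32851 windows. AGGTCA was in 1 bright and 19 dim genes, and in 16.3% of all windows. The TATA box TATAAA was in 4 bright and 23 dim genes against 13.6% of all windows, and the GC box GGGCGG in 7 and 9 against 35.7%. A letter match describes the window and is not a measured binding site.

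Cyp2f2, Cyp2b10 and Cyp2d22 fell more than any other CYP2 genes. Cyp2f2 encodes the enzyme that activates naphthalene in club cells. It was 10.50, 9.42, 9.64 and 9.69 in control replicates 1 to 4 and 7.90, 7.48, 6.57 and 7.52 in bleomycin replicates 1 to 4. Every control array was above every bleomycin array, and the difference was -2.45 ± 0.29 (SE, n = 4 and 4), 5.45-fold lower (limma adjusted p = 0.000387). Its second, dimmer probe set also fell, by 0.81 (adjusted p = 0.0193 over all probe sets), and the mean of both gave -1.63.

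Cyp2b10 encodes a phenobarbital-inducible enzyme that is the classical target of the receptor CAR. It was 8.71, 8.49, 7.60 and 7.03 in control and 6.22, 5.71, 5.76 and 6.02 in bleomycin arrays. No bleomycin array reached a control array, and control replicates 1 and 2 were the highest. The difference was -2.03 ± 0.32, 4.08-fold lower (limma adjusted p = 0.0019). It was -2.64 with replicates 1 and 2 of both groups alone, -1.42 with replicates 3 and 4 alone, and -1.39 without control replicates 1 and 2, and it passed each time.

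Cyp2d22, often treated as the mouse counterpart of human CYP2D6, differed little among arrays of a group. It was 9.73, 9.68, 9.97 and 9.73 in control and 8.41, 8.58, 8.66 and 8.73 in bleomycin arrays. With no overlap, the difference was -1.18 ± 0.10, 2.27-fold lower (limma adjusted p = 6.7e-05).

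Smaller falls were measured for Cyp2j9, whose relatives form epoxides from arachidonic acid, and for Cyp2s1, an epithelial enzyme that oxidises retinoids and eicosanoids. Cyp2j9 was 6.99, 6.83, 6.81 and 7.03 in control and 6.28, 6.15, 6.09 and 6.66 in bleomycin arrays, a difference of -0.62 ± 0.13 (adjusted p = 0.00854). Cyp2s1 was 6.95, 6.90, 6.82 and 6.50 in control and 6.32, 6.28, 6.27 and 6.25 in bleomycin arrays, a difference of -0.51 ± 0.11 (adjusted p = 0.0084). Neither gene's groups overlapped. Neither passed with replicates 3 and 4 alone or without control replicates 1 and 2.

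The other 5 bright CYP2 genes did not pass. Cyp2u1, a fatty acid hydroxylase, differed by -0.35 (95% interval -0.62 to -0.07, adjusted p = 0.082), and Cyp2e1, which oxidises ethanol, by -0.35 (-0.81 to 0.10, adjusted p = 0.281). Cyp2u1 passed with the replicate number as a block, with replicates 1 and 2 against 3 and 4 as a batch, without the dimmest 50% of genes and without control replicates 1 and 2. The intervals were -0.14 to 0.26 for Cyp2j6, -0.34 to 0.40 for Cyp2a22 and -0.27 to 0.33 for Cyp2c55, each of which holds 0. Of the 39 dim CYP2 genes, Cyp2d13 was the single gene that passed. Cyp2d13 was 4.81, 4.52, 4.38 and 4.21 in control and 4.07, 3.81, 4.14 and 3.98 in bleomycin arrays, and fell by 0.48 (adjusted p = 0.0321). It did not pass in 10 of 18 alternative analyses, among them those without control replicate 1, 2 or 3 or without bleomycin replicate 1, 2 or 4.

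In the CYP1 family neither bright gene passed. Cyp1a1, the enzyme most strongly induced by the aryl hydrocarbon receptor, was 4.69, 8.85, 7.89 and 4.76 in control and 4.25, 4.60, 5.33 and 4.63 in bleomycin arrays. Control replicates 2 and 3 stood far above the other 6 arrays, and control replicates 1 and 4 lay within the range of the bleomycin arrays. The other 6 arrays all lay below the brightness threshold of 5.51, so Cyp1a1 counted as bright through control replicates 2 and 3 alone. The control SD was 2.14, and the difference was -1.84 ± 0.84 (95% interval -3.70 to 0.02, limma adjusted p = 0.167). The high pair crosses the pairs of replicates in which Cyp2b10 differed. The difference was -1.07 without control replicate 2, -1.40 without control replicate 3, -2.46 without control replicate 1 and -2.44 without control replicate 4, and did not pass in any of the 20 alternatives. Other targets of the same receptor had a smaller range among the controls. Tiparp, which encodes a brake on that receptor, was 9.04, 9.35, 8.88 and 8.70 in control and 8.44, 8.13, 8.30 and 8.67 in bleomycin arrays. Cyp1a2, a dim member, was 4.37, 4.71, 4.63 and 4.56 in control and 4.92, 4.37, 4.67 and 4.64 in bleomycin arrays. Control replicate 2 was the highest control for all 3 genes, and control replicate 3 the next for Cyp1a1 and Cyp1a2. Other targets outside the P450 family had another highest control, replicate 3 for Ahrr (4.46) and replicate 4 for Nqo1 (5.99) and Aldh3a1 (5.78). For Cyp1b1 it was replicate 1 (7.55). Cyp1a2, Ahrr and Aldh3a1 were dim and may not have been above background.

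Cyp1b1, the family's fibroblast-expressed member, was 7.55, 7.51, 7.28 and 6.66 in control and 8.35, 7.53, 8.39 and 7.63 in bleomycin arrays. Its groups overlapped, since bleomycin replicate 2 lay below control replicate 1. The difference was 0.72 ± 0.25 (95% interval 0.18 to 1.27, limma adjusted p = 0.0695). It passed without bleomycin replicate 2, with the replicate number as a block, and without the dimmest 30% or 50% of genes.

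**Figure D3:**
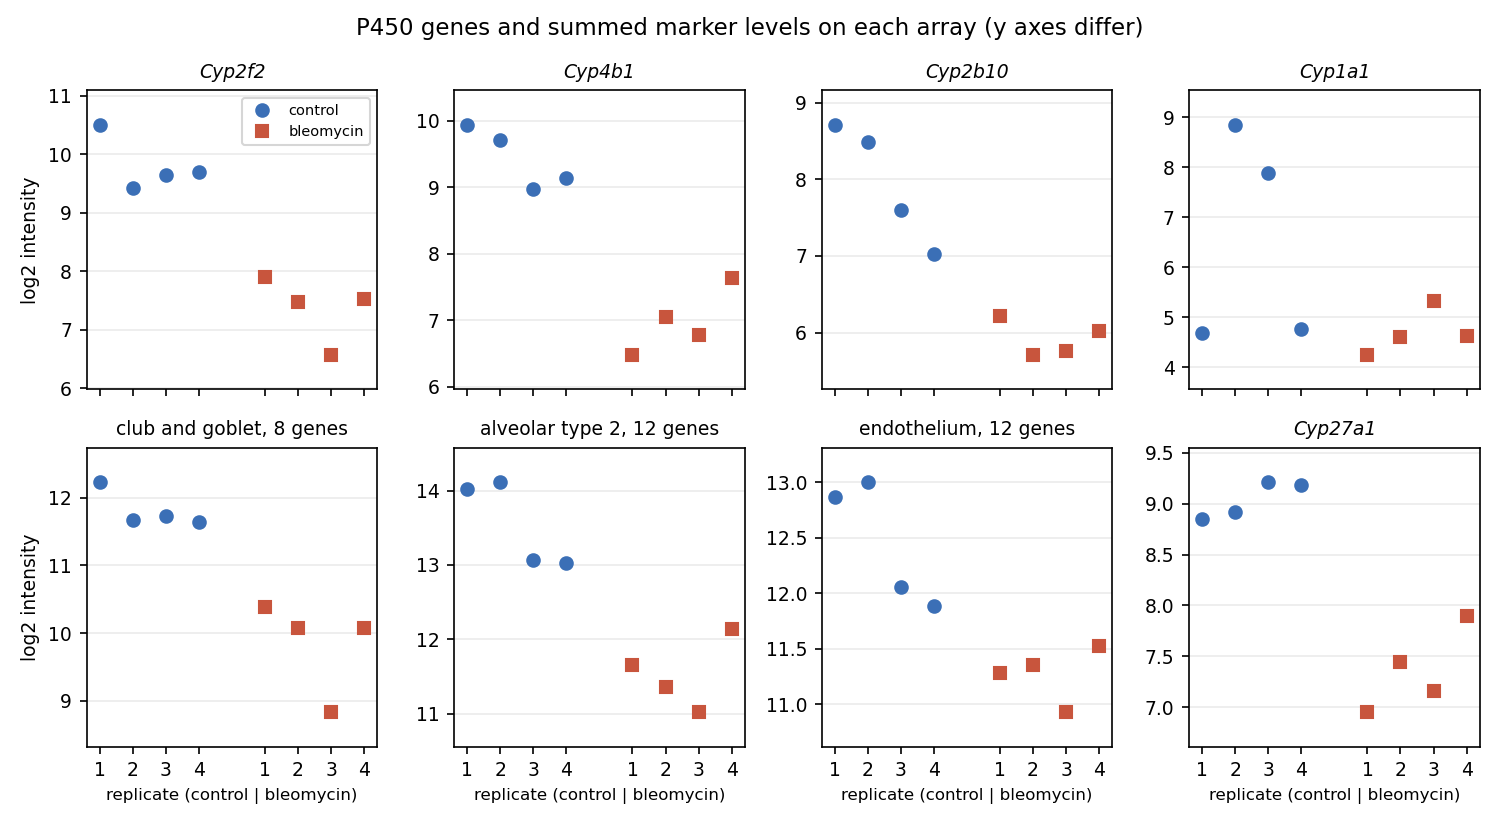
Panels show log2 intensity on each array for 5 P450 genes and the log2 summed level of 3 marker lists, with circles for control and squares for bleomycin replicates 1 to 4 and a separate y axis in each panel. Cyp4b1, Cyp2b10 and the alveolar type 2 and endothelial lists are higher in control replicates 1 and 2 than in 3 and 4, Cyp1a1 is high in control replicates 2 and 3, and Cyp27a1 is lower in control replicates 1 and 2 than in 3 and 4.

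In the CYP4 family Cyp4b1 and Cyp4v3 fell and Cyp4f17 rose among 5 bright genes. Cyp4b1, a lung enzyme that activates inhaled toxicants, was 9.94, 9.71, 8.97 and 9.14 in control and 6.48, 7.05, 6.78 and 7.64 in bleomycin arrays. All control arrays were above all bleomycin arrays, with a difference of -2.45 ± 0.27, 5.48-fold lower (limma adjusted p = 0.000246). The difference was -3.06 with replicates 1 and 2 alone, -1.85 with replicates 3 and 4 alone and -2.07 without control replicates 1 and 2, and it passed each time.

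Cyp4v3, a fatty acid hydroxylase, was 8.32, 8.12, 8.04 and 8.03 in control and 7.65, 7.82, 7.68 and 7.92 in bleomycin arrays. Despite no overlap the difference was small, -0.36 ± 0.10 (adjusted p = 0.0332). It did not pass in 10 of 20 alternatives, including those without control replicate 1, 2 or 3 and those without bleomycin replicate 1, 2 or 3. Cyp4f17, of the subfamily that hydroxylates leukotrienes and fatty acids, was 7.14, 7.30, 7.30 and 7.31 in control and 7.63, 7.97, 7.59 and 7.64 in bleomycin arrays. It rose by 0.45 ± 0.10 with no overlap (adjusted p = 0.015), and did not pass with either pair of replicates alone or without control replicates 1 and 2.

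Cyp4f13 differed by -0.28 (95% interval -0.54 to -0.02, adjusted p = 0.139) and Cyp4a12b by -0.03 (-0.26 to 0.19, adjusted p = 0.866). Among the 15 dim CYP4 genes, Cyp4f16 rose by 0.59 (adjusted p = 0.0413) and the pseudogene Cyp4f41-ps by 0.41 (adjusted p = 0.03). Cyp4f16 was 4.87, 4.68, 5.13 and 4.84 in control and 5.76, 5.75, 4.97 and 5.40 in bleomycin arrays, so bleomycin replicate 3 lay within the controls. Cyp4f16 did not pass in 11 of 19 alternatives, including median centring and 6 of the 8 that left out a single array, all but those without control replicate 3 or bleomycin replicate 3. Cyp4f41-ps was 2.60, 3.04, 2.79 and 3.05 in control and 3.29, 3.29, 3.29 and 3.23 in bleomycin arrays. Cyp4f41-ps did not pass in 9 of 18 alternatives, including those without control replicate 1 or 3 or without bleomycin replicate 1, 2 or 3. Probe sets of near-identical CYP2C, CYP2D, CYP3A and CYP4F genes may share signal.

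All 7 CYP3 genes, relatives of the main drug-oxidising enzyme of human liver, were dim. Cyp3a13 was 3.89, 3.69, 3.46 and 3.62 in control and 3.30, 2.81, 3.08 and 2.79 in bleomycin arrays. With no overlap, Cyp3a13 fell by 0.67 (adjusted p = 0.00733). It did not pass with either pair of replicates alone or without control replicates 1 and 2. The other 6 CYP3 genes did not pass.

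The sterol and steroid enzymes held both the gene that rose most and a strong fall. Cyp7b1, the oxysterol 7-alpha-hydroxylase that clears 25- and 27-hydroxycholesterol, was 7.73, 7.76, 7.38 and 7.81 in control and 9.28, 9.26, 9.08 and 9.06 in bleomycin arrays. Each bleomycin array was above each control array, and the gene rose by 1.50 ± 0.11, 2.83-fold (limma adjusted p = 3.32e-05). A rise of more than 2-fold was called for 3.04% of all bright genes, and Cyp7b1 was the single P450 gene with one.

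Cyp27a1, the mitochondrial enzyme that makes 27-hydroxycholesterol, moved the other way. It was 8.85, 8.92, 9.21 and 9.18 in control and 6.95, 7.44, 7.16 and 7.90 in bleomycin arrays. The groups did not overlap, and Cyp27a1 fell by 1.68 ± 0.19, 3.21-fold lower (limma adjusted p = 0.000261). Cyp39a1, which hydroxylates 24-hydroxycholesterol, was 7.95, 8.01, 8.04 and 8.10 in control and 7.11, 7.49, 7.26 and 7.37 in bleomycin arrays. It fell by 0.72 ± 0.10 with no overlap (adjusted p = 0.000856), and did not pass with replicates 1 and 2 alone. All 3 bright genes of the group thus passed, where 27.9% of all bright genes did. The transcript of the enzyme that makes 27-hydroxycholesterol was lower, and that of an enzyme that removes it was higher. Whether the level of 27-hydroxycholesterol changed was not tested.

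The 8 dim genes of this group did not pass. They hold the steroid hormone enzymes Cyp11a1, Cyp11b1, Cyp11b2, Cyp17a1 and Cyp21a1, the bile acid enzymes Cyp7a1 and Cyp8b1, and the brain cholesterol hydroxylase Cyp46a1. At an unadjusted p under 0.05, 1 of the 8 was higher and 1 lower. Cyp17a1 was 3.32, 3.62, 3.47 and 3.37 in control and 3.87, 3.69, 3.79 and 3.63 in bleomycin arrays, with no overlap and a difference of 0.30 (adjusted p = 0.0595).

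Of the 5 enzymes of vitamin D and retinoic acid, Cyp2r1 was bright and rose. Cyp2r1, the main vitamin D 25-hydroxylase, was 5.88, 5.74, 5.46 and 5.69 in control and 6.10, 6.23, 5.98 and 6.18 in bleomycin arrays, a difference of 0.43 ± 0.11 with no overlap (adjusted p = 0.0187). It did not pass with either pair of replicates alone or without control replicate 3. The activating Cyp27b1, the degrading Cyp24a1 and the retinoic acid hydroxylases Cyp26a1 and Cyp26c1 were dim and did not pass. The remaining member, Cyp20a1, an enzyme without a settled substrate, had the highest mean of the 96 genes at 9.41 and differed by -0.21 (95% interval -0.41 to -0.01, adjusted p = 0.141).

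Several members stand in gene clusters. In RefSeq gene order, with neighbours no more than 1 Mb apart, the CYP2 cluster from Cyp2s1 to Cyp2t4 on chromosome 7 held 13 members. Its 4 bright genes were Cyp2s1, Cyp2b10, Cyp2a22 and Cyp2f2, of which all but Cyp2a22 fell, and its 9 dim genes did not pass, where 6.83% of all dim genes passed. The Cyp2d cluster on chromosome 15 held 10 members, of which Cyp2d22, at its edge and the single bright one, and the dim Cyp2d13 fell. The cluster from Cyp4x1 to Cyp4b1 on chromosome 4 held 9 members, and Cyp4b1 was the member that passed. The Cyp2j cluster on the same chromosome held 7 members, with Cyp2j9 lower and the bright Cyp2j6 and 5 dim genes not passing. The Cyp4f cluster on chromosome 17 held 9 members, of which the bright Cyp4f17 and the dim Cyp4f16 and Cyp4f41-ps rose. Probe sets of near-identical Cyp4f genes may share signal. None of the 14 members of the Cyp2c cluster on chromosome 19 passed. Over all genes, 14% of bright and 2.46% of dim genes were called lower, and 13.9% and 4.37% higher. The dim Cyp2d13, Cyp4f16 and Cyp4f41-ps did not pass in 10 of 18, 11 of 19 and 9 of 18 alternatives.

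Most markers of alveolar and endothelial cells also fell. Of 12 alveolar type 2 markers, 11 fell, with a summed log2 level of 13.02 to 14.11 in control and 11.02 to 12.14 in bleomycin arrays. Of 12 endothelial markers, 10 fell, and their summed level was 11.89 to 13.00 in control and 10.93 to 11.53 in bleomycin arrays. Both lists were higher in control replicates 1 and 2 than in control replicates 3 and 4. The alveolar type 1 and macrophage lists had the same order in their summed levels. So did Cyp4b1, Cyp2b10, Cyp2s1 and Cyp4v3 among the bright P450 genes that fell. Cyp27a1 and Cyp39a1 were lower in control replicates 1 and 2, and Cyp2d22, Cyp2f2 and Cyp2j9 showed no such split. The alveolar type 1 list had 6 of 7 markers lower and 1 higher, with summed levels of 11.63 to 12.31 and 11.11 to 11.47. Pdpn, the marker that rose, was the brightest of them in bleomycin arrays and weighs most in that sum. The list's mean log2 levels were 8.20 to 8.83 in control and 7.06 to 7.68 in bleomycin arrays.

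The club and goblet cell list had 3 of 8 markers lower, and its summed level was 12.23, 11.68, 11.73 and 11.65 in control and 10.38, 10.07, 8.83 and 10.07 in bleomycin arrays. Its defining marker Scgb1a1 was 12.12, 11.49, 11.59 and 11.50 in control and 10.11, 9.64, 8.03 and 9.65 in bleomycin arrays. Like Cyp2f2, both were highest in control replicate 1 and lowest in bleomycin replicate 3, but Scgb1a1, the brightest marker, makes up most of that sum. The list's mean log2 level was also lowest in bleomycin replicate 3. It was highest in control replicate 2, at 6.23 against 5.90 in control replicate 1. Some other markers of the list likewise had their highest value outside control replicate 1. Of the other lists, 1 of 5 ciliated and 1 of 6 mesothelial markers fell, and 5 of 10 macrophage markers rose and 1 fell. The macrophage list's summed levels, in which the brightest markers weigh most, overlapped at 11.00 to 11.72 in control and 10.88 to 11.45 in bleomycin arrays. Its mean log2 levels reached higher in bleomycin arrays, at 6.76 to 7.20 against 6.45 to 6.80 in control arrays. No marker value was at 0, since log2 intensities carry background. The part of these cells in the P450 results was not tested.

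The genes that serve P450 enzymes or work beside them were taken as fixed lists, 67 of whose 77 genes were measured. Of the 67, 7 rose and 20 fell, and the median of all their differences was -0.17. Of the 52 bright ones, 6 rose and 20 fell, where 13.9% of all bright genes were called higher and 14% lower. Of the 15 dim ones, 1 rose. Over all genes, bright and dim, the shares were 9.12% and 8.24%. Fewer list genes passed with fewer arrays, 27 with all 8 against 12 with replicates 1 and 2 alone and 5 with replicates 3 and 4 alone, alternatives that were applied to these lists after the data were seen. Adh7 and Fmo1 passed in all 20 alternatives.

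The electron partners were divided, with 2 of 6 measured genes higher and 2 lower. Fdx1, the ferredoxin that feeds mitochondrial P450 enzymes such as Cyp27a1, fell by 0.71 and the microsomal electron donor Cyb5a by 0.50. The cytochrome b5 reductase Cyb5r3 rose by 0.60. Cyb5a did not pass with either pair of replicates alone, nor Fdx1 and Cyb5r3 with replicates 3 and 4 alone. Por, the reductase of microsomal P450 enzymes, was not analysed here. In heme synthesis, Alas1, its rate-limiting enzyme, was 9.58, 9.97, 10.01 and 10.00 in control and 9.01, 9.06, 8.97 and 9.53 in bleomycin arrays and fell by 0.75 (adjusted p = 0.006). Cpox, a later enzyme, rose by 0.39. Neither passed with either pair of replicates alone, nor Cpox without control replicates 1 and 2. The other 5 measured genes of that pathway did not pass.

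Of 18 receptors and partners that regulate P450 genes, 10 of them bright, 4 rose and 2 fell. Over all genes 9.12% were called higher and 8.24% lower. Ahr, the aryl hydrocarbon receptor, was 8.24, 7.99, 7.67 and 7.66 in control and 9.29, 8.71, 9.14 and 8.80 in bleomycin arrays and rose by 1.09 (limma adjusted p = 0.00152). Vdr, the vitamin D receptor, was 5.24, 5.34, 4.94 and 4.75 in control and 6.62, 6.17, 6.26 and 5.66 in bleomycin arrays and rose by 1.11 (adjusted p = 0.00357). Neither receptor's groups overlapped. Ahr did not pass with replicates 1 and 2 alone (adjusted p = 0.0711), nor Vdr with replicates 3 and 4 alone (adjusted p = 0.0589). Arnt2 rose by 0.78 (limma adjusted p = 0.00553) but was dim, and did not pass with replicates 3 and 4 alone. Of 4 targets of the aryl hydrocarbon receptor outside the P450 family, Tiparp fell by 0.61 (adjusted p = 0.0219) and the other 3 did not pass. The mean of the 2 probe sets of Tiparp differed by -0.34 and did not pass (adjusted p = 0.204). Tiparp did not pass in 8 of 20 alternatives, among them those without control replicate 1 or 2 or without bleomycin replicate 2 or 3, and differed by -0.31 with replicates 3 and 4 alone. The xenobiotic receptors Nr1i2 and Nr1i3 did not pass, but both were dim, with means of 3.90 and 4.14, and may not have been above background. Pparg fell by 0.54, without passing in either pair of replicates alone.

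Among other enzymes of drug metabolism, 7 of 16 oxidation enzymes outside the family fell and 9 did not pass. Of 16 conjugation enzymes, 6 fell and 10 did not pass. Of these lists 15 and 12 genes were bright, a class in which 14% of all genes were called lower. No gene of either list passed as higher in limma, and at an unadjusted p under 0.05 the higher ones numbered 1 and 2. The alcohol dehydrogenase Adh7 fell by 1.64, the aldehyde oxidase Aox3 by 1.43 and the flavin monooxygenase Fmo1 by 1.25. Gsta3, a glutathione transferase, was 9.17, 9.11, 9.82 and 9.74 in control and 6.78, 7.72, 6.87 and 8.22 in bleomycin arrays, and fell by 2.06, 4.17-fold (adjusted p = 0.00139). Its control arrays were lower in replicates 1 and 2 than in 3 and 4, the reverse of Cyp2b10 and Cyp4b1. Gstm1 fell by 0.91 and Gsta4 by 0.66. Aox3 and Gstm1 did not pass with replicates 1 and 2 alone, Gsta3 with replicates 3 and 4 alone, or Gsta4 with either pair.

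**Figure D4:**
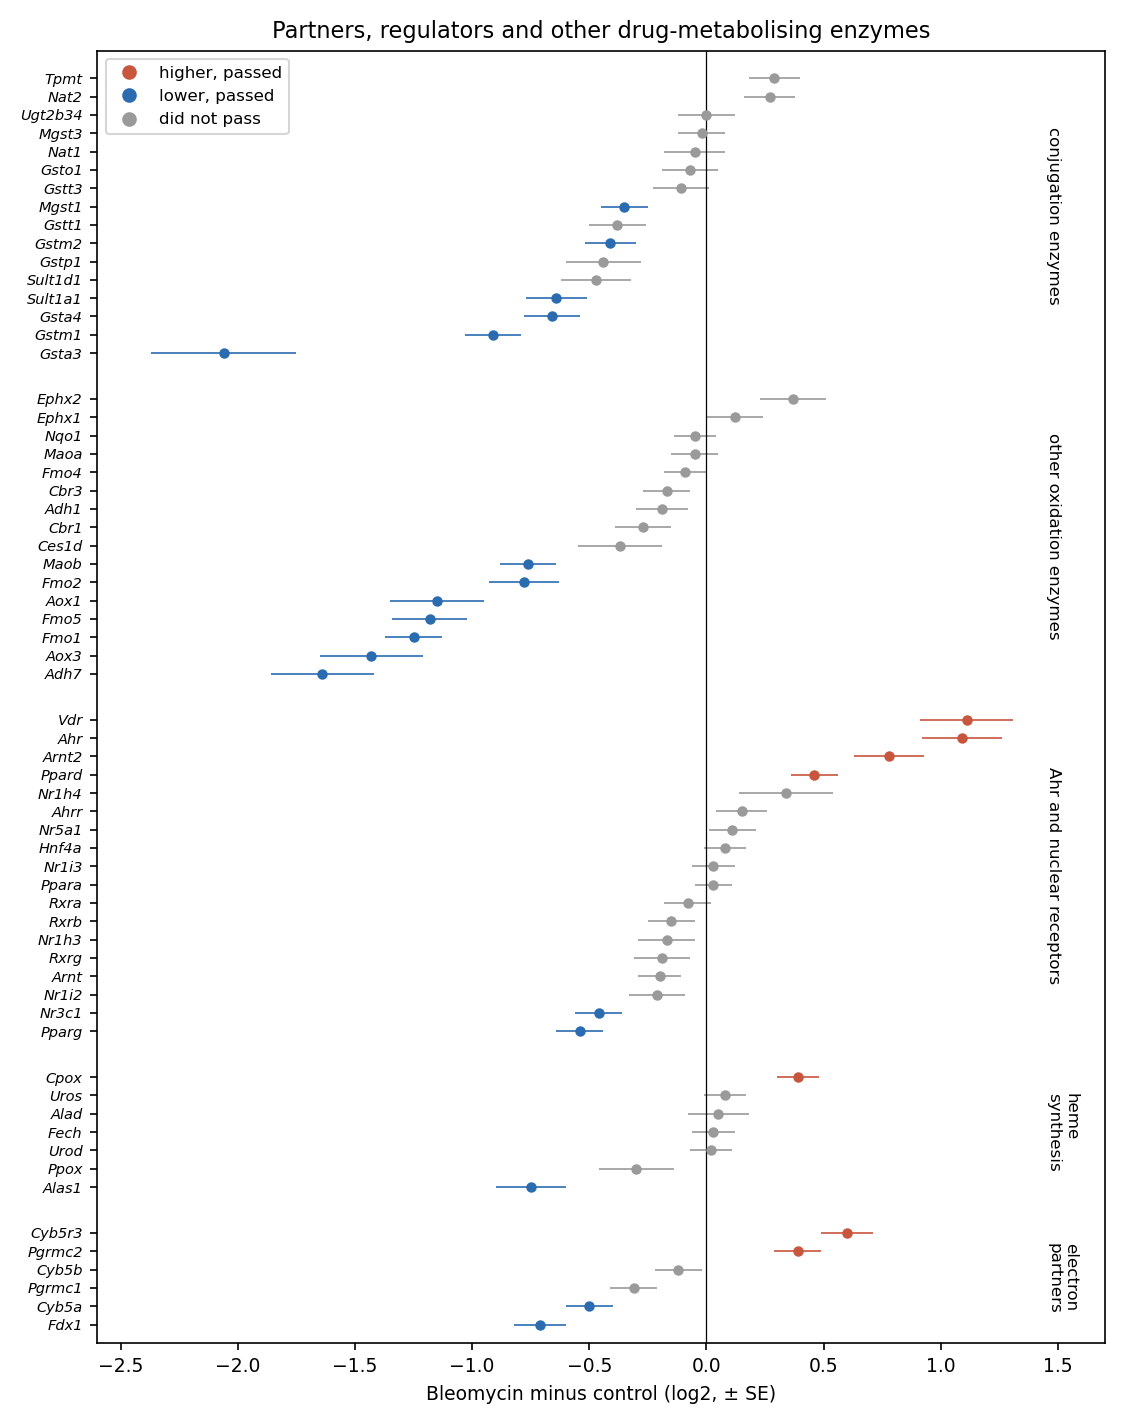
Each point is a measured gene of 5 lists, with the log2 difference of bleomycin from control on the x axis and bars of ± SE, coloured by whether it passed. The oxidation and conjugation lists have passing genes on the lower side alone, down to -2.06 for Gsta3, while Ahr at 1.09 and Vdr at 1.11 lead the receptors.

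The 2 P450 enzymes whose symbols do not begin with Cyp act on prostaglandin H. Ptgis, the prostacyclin synthase, was 10.31, 10.36, 10.74 and 10.72 in control and 9.74, 9.76, 10.02 and 10.28 in bleomycin arrays. The groups did not overlap and Ptgis fell by 0.58 (adjusted p = 0.0226). It did not pass with replicates 3 and 4 alone, without control replicate 3 or 4, or without bleomycin replicate 1 or 2. Tbxas1, the thromboxane synthase, was dim and differed by 0.23 (95% interval 0.03 to 0.44, adjusted p = 0.106).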

How the data were processed

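Each of 8 arrays has a single deposited value per probe set. The deposited values lie between 0.24 and 13.58, with no scale named, and were taken as log2 intensities without further change. Per the labels' protocols, biotinylated cRNA was made from 100 ng of total RNA purified on silica columns. How the authors corrected background, summarised probes and normalized arrays was not given in the sources used here. Arrays give no read depth, and their number limits the precision.

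Of 41345 probe sets, 23521 were paired with a single gene and gave 22180 genes, each taken at its brightest probe set. Groups and replicate numbers came from sample titles. The groups were tested by limma 3.58.1 (lmFit, then eBayes; R 4.3.3), with Benjamini-Hochberg adjustment and a threshold of 0.05. The test was checked on simulated data. Figures were drawn with Python 3.11.15 and matplotlib 3.10.9.

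P450 genes, pathway lists and markers were chosen with earlier results of these data known. Named are all bright P450 genes that passed and the 8 brightest that did not, dim genes that passed, the 2 genes on each side of the brightness threshold, and up to 3 passing genes per list. Cyp17a1, Cyp1a2, Scgb1a1, Ahrr, Nqo1, Aldh3a1 and the genes listed by function without values were named after their values were seen. Pparg, Nr1i2, Nr1i3 and Tbxas1 were also named outside these rules. The 6 probe sets annotated with several genes that include a P450 gene were left out of the counts. Alternatives were the replicate number or a batch as a block, 2 normalizations, filters on dim genes, the mean of probe sets, trended robust eBayes, array weights, other brightness thresholds and leaving out arrays.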

Additional observations from a re-analysis of the deposited data

Results flagged for a closer look

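Of 52 groups of 4 arrays looked at for a value far from the rest, 3 held one, and chance gives about 1 in 20. In Cyp4f17, control replicate 1 was 7.14, below the other 3 controls, and bleomycin replicate 2 was 7.97, above the other 3 bleomycin arrays. In Cyp4f41-ps, bleomycin replicate 4 was 3.23 beside 3.29 in each of the others, a gap of small absolute size.

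The probe set shared by Cyp4a10 and Cyp4a31, fatty acid hydroxylases of the peroxisome proliferator response, was left out of the counts because its gene is not settled. It was 3.36, 3.28, 3.51 and 3.18 in control and 2.62, 2.83, 2.99 and 2.73 in bleomycin arrays. The groups did not overlap, with a difference of -0.54 (limma adjusted p = 0.0188 over all probe sets).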

How the results depend on the processing

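Cyp2d22, Cyp2f2, Cyp4b1, Cyp27a1, Cyp2b10 and Cyp7b1 passed in the same direction in all 20 alternatives, and none of the 26 P450 genes tried reversed a call. The count of bright genes that fell was 6 to 10 over these fits. The bright genes that rose numbered 1 with replicates 1 and 2 alone and 1 with replicates 3 and 4 alone. The dim genes that rose numbered 1 with median centring, without the dimmest 30% of genes, with trended robust eBayes, with array weights and with replicates 1 and 2 alone. They numbered 0 with replicates 3 and 4 alone and without control replicates 1 and 2 together (6 and 5 at an unadjusted limma p under 0.05). Leaving out each array in turn gave 0 to 2. The dim genes that fell numbered 1 with quantile normalization and with replicates 3 and 4 alone, and 0 without the dimmest 30% of genes, with replicates 1 and 2 alone and without control replicates 1 and 2 together (0, 4 and 3 at an unadjusted limma p under 0.05). With bright taken as above the 75th percentile of tested genes they numbered 5, since some genes then change class, and leaving out each array gave 1 to 2. Without the dimmest 50% of genes no dim gene was left to count. Of the pathway genes 27 passed, 12 with replicates 1 and 2 alone, 5 with replicates 3 and 4 alone, and 21 to 30 in the other alternatives, most of them chosen after the data were seen. The cause of these shifts was not tested beyond the smaller numbers of arrays and genes. With the replicate number as a block, 4 bright P450 genes rose and 9 fell, and 3 dim genes rose and 2 fell. Same-numbered arrays correlated in their deviations by 0.13, 0.06, 0.11 and 0.06, and control replicate 2 correlated best with bleomycin replicate 1. Correlations this small cannot tell whether the numbers pair the arrays. Across groups, replicates 1 and 2 correlated with each other by 0.06 to 0.13 and replicates 3 and 4 by 0.06 to 0.11, while arrays of different pairs correlated by -0.14 to -0.07. With these pairs as a batch, 3 bright genes rose and 10 fell, and 3 dim genes rose and 2 fell. Over all genes the calls higher and lower were 2022 and 1828, with the block 1937 and 1838, with the pairs as a batch 2293 and 2168, with median centring 1623 and 2314, and with quantile normalization 2567 and 1589. Signal of the dim genes cannot be told from background here, since there are no detection calls. As a rough guide, the per-array median of probe sets without a gene was 4.44 to 4.52 in control and 4.20 to 4.35 in bleomycin arrays. The 75th percentile of their means was 5.56. The bright Cyp2c55, with a mean of 5.60, and Cyp4a12b and Cyp1a1, at 5.62, lie just above it, Cyp1a1 only through control replicates 2 and 3.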
